A study of Mus musculus with 6 samples.

Results

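The nuclear genes of oxidative phosphorylation were read out in cultured mouse bone marrow stromal cells that carry or lack the long non-coding RNA gene NONMMUT002667. Members were all genes with a non-control probe whose name in the array files begins with Nduf, Uqcr, Atp5 or Cox followed by a digit, or is Sdha, Sdhb, Sdhc or Sdhd. The rule found 101 genes among the 27195 named genes on the array, with 164 probes. They comprised 36 subunits of complex I, 4 of complex II, 8 of complex III, 17 of complex IV and 15 of complex V, 16 assembly factors, and 5 other genes that carry such a name. A gene was represented by its brightest tested probe, and 99 of the 101 genes were tested. All 99 were well above background on all 6 arrays, while Cox8b and Cox8c, the muscle and the testis form of subunit 8 of complex IV, were well above background on 0 arrays.

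The samples were 3 from wild-type mice (WT) and 3 from NONMMUT002667 knockout mice (KO), all labelled male, with no age given and no other allele or treatment named for either group. Femurs were crushed and digested with collagenase, Sca-1+ CD29+ CD45- CD11b- cells were sorted by flow cytometry, and the sorted cells of both groups were expanded in culture from the first passage. Each sample was hybridised with Cy3 to 1 Agilent array, and the number of animals behind each sample is not given in the labels. The spread that the p-values rest on is therefore that among samples, which may be technical. The knocked-out RNA was not checked on these arrays. Values are log2 signals relative to the 75th percentile of the array (a level) or KO minus WT differences of such levels, and the number of arrays limits their precision.

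Oxidative phosphorylation passes electrons from NADH through complex I, or from succinate through complex II, to ubiquinone, then through complex III and cytochrome c to complex IV, which reduces oxygen. Complexes I, III and IV pump protons across the inner mitochondrial membrane, and complex V, the ATP synthase, lets them back to make ATP. Most subunits are encoded in the nucleus and made in nearly all cells, but several subunits of complex IV exist as paired genes, with a common form and a form of heart and skeletal muscle, lung or testis. Bone marrow stromal cells are known to raise their oxidative metabolism when they differentiate into osteoblasts or adipocytes.

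Promoter sequences are shown first, since NRF1, GABP and YY1 are known to bind in the promoters of many of these genes. RefSeq promoters (build GRCm38.p6, 250 bases before to 50 after the start) were matched for 82 of the 101 genes. Both strands of every promoter of a gene were searched for GCGCA and GCGC with any 1 base between them, a site of nuclear respiratory factor 1 (NRF1), for CCGGAAG, a site of ETS factors such as GABP, and for AAGATGGC, a site of YY1. NRF1 letters were found in 19 of the 82 genes (23.2%, against 5.19% of 27025 genes with a promoter), ETS letters in 22 (26.8% against 9.93%) and YY1 letters in 13 (15.9% against 3.19%). At least 1 of these motifs was found in 46 of the 82 genes (56.1% against 16.4%). It was found in 11 of 14 complex V subunits and 17 of 32 complex I subunits, but in 3 of 12 complex IV subunits and in 0 of the 4 complex IV tissue forms with an entry (Cox6b2, Cox7a1, Cox7b2 and Cox8b). A match describes the letters only, not a bound site. The 200 bases before the start are printed 5′ to 3′ on the strand of the gene, with whole motif matches on either strand in capitals. They come from chr5:115348959-115349158 (minus strand), chr16:37654369-37654568 (minus strand), chr13:74350241-74350440 (minus strand), chr16:84834977-84835176 (minus strand), chrX:106015500-106015699 (plus strand) and chr5:71548206-71548405 (minus strand). The first 4 were chosen after their matches were seen, as examples with several, and Cox7b and Cox7b2 as the common and the testis form of 1 subunit; Atp5j has a second RefSeq start that is not shown.
Cox6a1: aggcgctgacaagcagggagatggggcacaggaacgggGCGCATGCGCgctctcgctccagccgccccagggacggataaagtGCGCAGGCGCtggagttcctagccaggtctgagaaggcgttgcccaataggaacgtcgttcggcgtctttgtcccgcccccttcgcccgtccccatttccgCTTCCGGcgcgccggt
Ndufb4: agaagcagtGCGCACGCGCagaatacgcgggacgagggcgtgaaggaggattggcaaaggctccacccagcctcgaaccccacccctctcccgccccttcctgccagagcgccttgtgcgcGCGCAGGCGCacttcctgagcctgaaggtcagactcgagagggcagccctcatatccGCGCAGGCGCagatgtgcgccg
Sdha: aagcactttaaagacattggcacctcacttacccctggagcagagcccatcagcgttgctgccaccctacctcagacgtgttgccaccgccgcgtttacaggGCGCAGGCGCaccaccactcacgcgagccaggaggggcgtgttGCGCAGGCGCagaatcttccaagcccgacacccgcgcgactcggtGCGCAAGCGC
Atp5j: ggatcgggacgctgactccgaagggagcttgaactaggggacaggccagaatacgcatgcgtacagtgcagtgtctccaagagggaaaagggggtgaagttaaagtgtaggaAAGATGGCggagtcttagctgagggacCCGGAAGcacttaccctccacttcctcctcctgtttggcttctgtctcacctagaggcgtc
Cox7b: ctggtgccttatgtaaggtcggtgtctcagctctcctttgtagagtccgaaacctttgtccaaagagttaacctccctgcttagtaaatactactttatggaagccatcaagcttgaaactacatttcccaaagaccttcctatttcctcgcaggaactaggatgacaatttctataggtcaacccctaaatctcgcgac
Cox7b2: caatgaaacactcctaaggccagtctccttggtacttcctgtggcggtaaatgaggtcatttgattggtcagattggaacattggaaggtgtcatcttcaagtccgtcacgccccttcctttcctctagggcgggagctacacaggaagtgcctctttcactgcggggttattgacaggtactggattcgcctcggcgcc
Cox6a1, Ndufb4 and Sdha hold NRF1 letters at several places in this window, Atp5j holds YY1 and ETS letters, and neither Cox7b nor Cox7b2 holds any of these motifs. The median KO minus WT difference was 0.02 both for members with and for members without NRF1 letters, 0.04 with and 0.01 without ETS letters, and 0.03 with and 0.02 without YY1 letters. The factors themselves did not pass the test, with differences of 0.08 (SE 0.08) for Nrf1, -0.04 (SE 0.11) for Gabpa, -0.10 (SE 0.08) for Gabpb1 and 0.05 (SE 0.10) for Yy1 (limma adjusted p from 0.622 to 0.911).

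The share of spots well above background was 54.3% to 56.7% on WT arrays and 49.0% to 53.0% on KO arrays, and outlier spots numbered 49 to 72 on WT and 83 to 131 on KO arrays, so both measures separated the groups. Their part in the results below was not tested. No array had a saturated spot. All 6 lay on 1 slide and shared 1 scan time. The header position codes put the 3 WT arrays in row 1 of the slide and the 3 KO arrays in row 2, so slide row and genotype cannot be told apart. Xist, the RNA of the inactive X chromosome, was well above background on WT replicate 3 and KO replicate 1 although all samples are labelled male; each group holds 1 such array, and values without both are given where they change a result. Transcripts of sorted-out and neighbouring cells were present: 15 of 15 macrophage and monocyte markers were well above background on all arrays, with a summed level (log2 of the sum of their linear signals) from 10.29 to 10.32 in WT and from 10.39 to 10.49 in KO. Summed osteoblast and stromal markers (16 of 16 tested) ranged from 10.48 to 10.60 in WT and from 10.01 to 10.40 in KO. This list includes genes of the sorted cells themselves, among them Ly6a and Itgb1, the genes of the positive sorting markers. Of its differences, 5 were positive and 11 negative. Summed adipocyte markers (6 of 8 tested) ranged from 4.84 to 4.91 in WT and from 5.12 to 5.29 in KO, with 5 positive differences and 1 negative. The part of cell composition in the results was not tested either, and in such bulk RNA fewer cells of a type and less RNA per cell cannot be told apart.

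As a whole, the oxidative phosphorylation genes differed little between KO and WT cells. The 5 members whose difference was beyond 0.25 were Cox6a2 and Cox7b2, both tissue forms of complex IV, Sdha of complex II, and Ndufa4l2 and Atp5s of the other genes. Of the 99 tested members, 0 passed limma's adjusted p of 0.05, which 12 of all 15371 genes passed (0.0781%), and the lowest adjusted p of a member was 0.0534. At an unadjusted p under 0.05 there were 4 members (4.04%), with 2 higher and 2 lower in KO, against 15.0% of all genes (6.94% higher and 8.03% lower). The 3 KO values lay all above or all below the 3 WT values in 8 of the 99 members (8.08%), against 22.4% of all genes; 4 members lay above and 4 below, against 12.0% and 10.4% of all genes. The median difference was 0.02 for members and 0.02 for all genes, and 94 members (94.9%) lay within 0.25 on either side of 0, against 79.9% of all genes. The median standard error was 0.08 for members and 0.10 for all genes. Members were also brighter, with a median level of 4.59 against 0.47 for all genes. They were not compared with genes of like level, so the narrower spread and smaller shares are not read as a trait of the pathway. The signs of the differences were 59 positive and 40 negative (55.8% and 44.2% for all genes) with the 75th percentile as reference, but 40 and 59 with the array median as reference, so no shared direction is read from them.

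**Figure D1:**
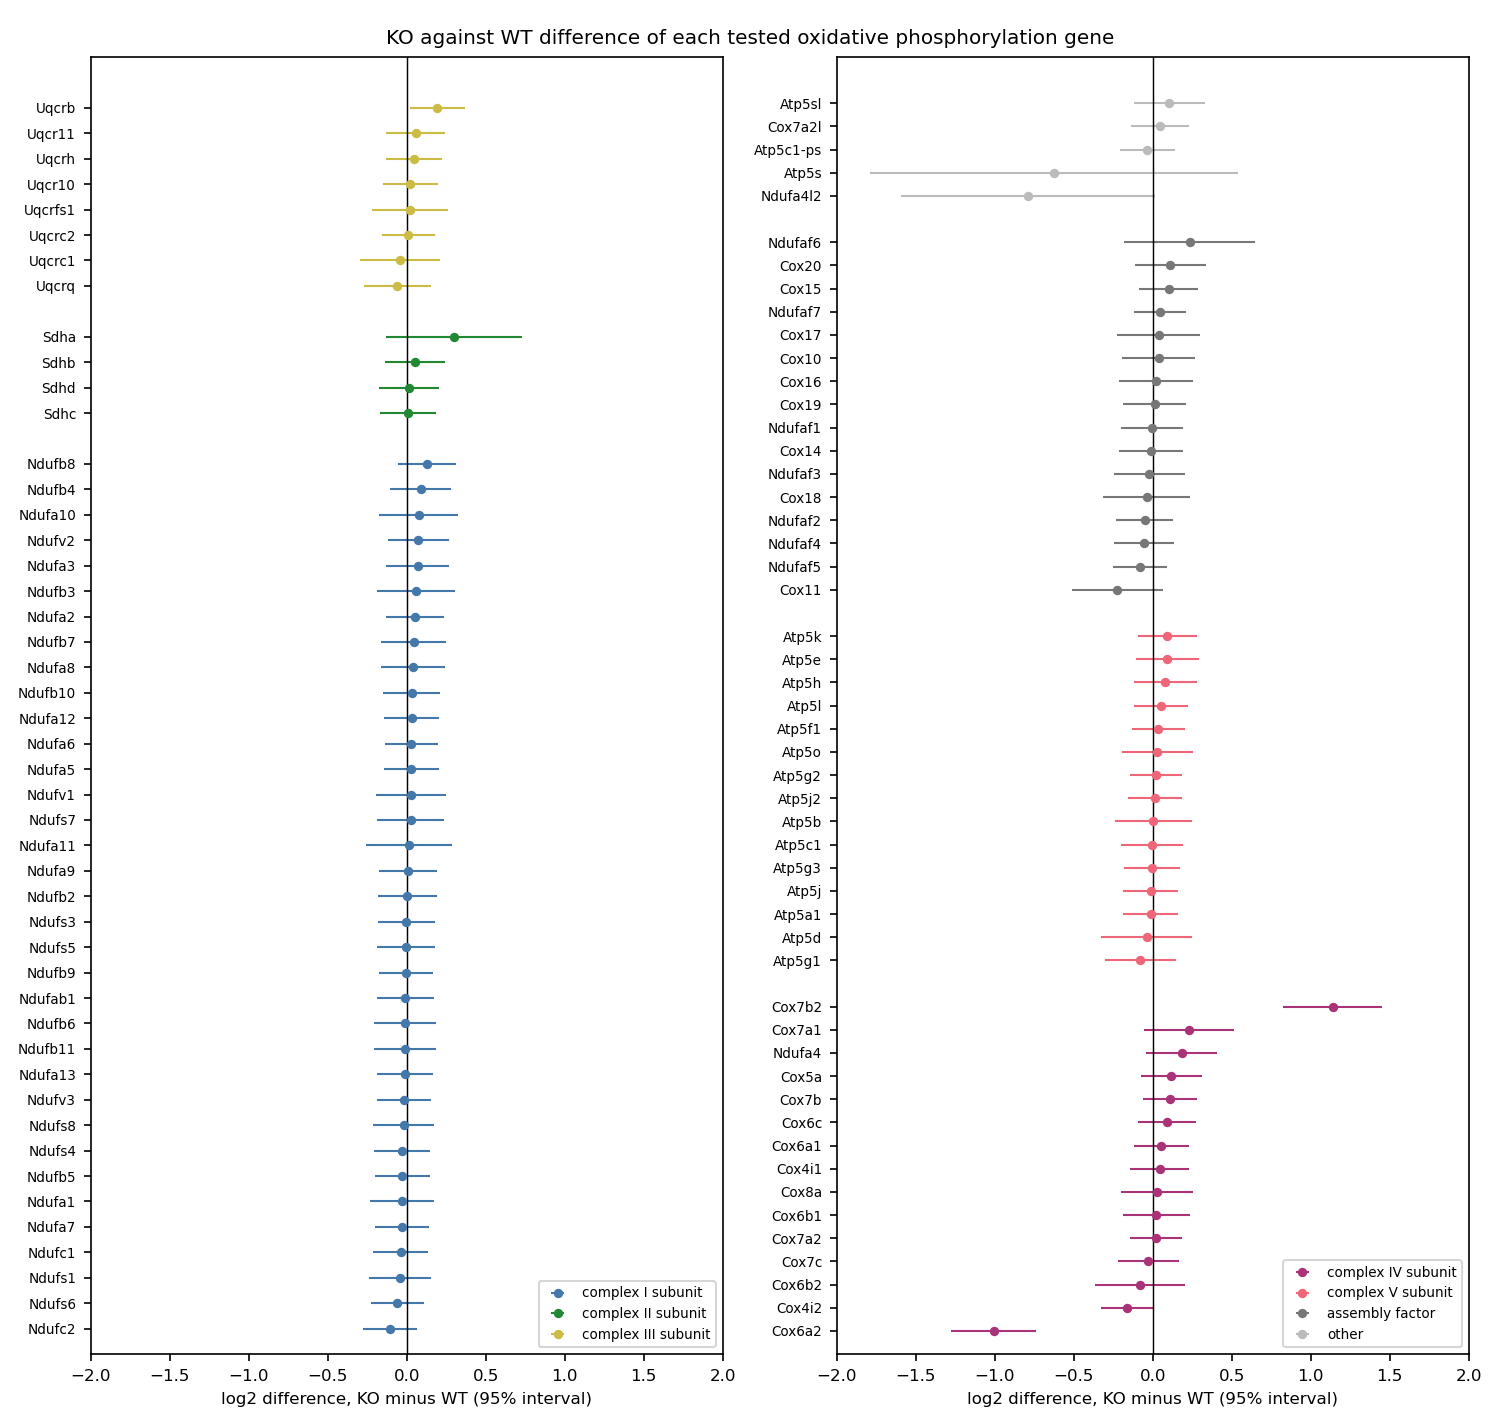
Log2 KO minus WT difference of 98 of the 99 tested genes, with 95% intervals from limma, sorted within respiratory complexes, assembly factors and other genes. Nearly all points lie close to 0; Cox7b2 (1.14) and Cox6a2 (-1.01) lie far to the right and left, and Ndufa4l2 and Atp5s have wide intervals.

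Complex I, the NADH dehydrogenase, had all 36 subunit genes tested, with differences from -0.11 to 0.13 and a median of 0.01. Of these, 19 were positive, 17 negative and 0 had an unadjusted limma p under 0.05, against 15.0% of all genes. Ndufv1, which binds NADH, had levels of 4.34, 4.38 and 4.37 in WT and 4.54, 4.25 and 4.38 in KO. Those KO values lay on both sides of the WT values, and the difference was 0.03 (SE 0.09; 95% interval -0.20 to 0.25). Ndufb8, a membrane arm subunit, had the highest difference of the complex. Its levels were 4.83, 4.94 and 4.85 in WT and 4.96, 4.97 and 5.08 in KO. All 3 KO values lay above the WT values, by little for WT replicate 2, and the gene did not pass (difference 0.13, SE 0.08, limma adjusted p = 0.482). Ndufc2, another membrane arm subunit, had the lowest difference, with levels of 4.78, 4.86 and 4.83 in WT and 4.74, 4.67 and 4.74 in KO. Its 3 KO values lay below the WT values without passing (-0.11, SE 0.07, limma adjusted p = 0.537).

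Complex II, the succinate dehydrogenase that also serves the tricarboxylic acid cycle, had 4 subunits with differences of 0.01 for Sdhc, 0.01 for Sdhd, 0.05 for Sdhb and 0.30 for Sdha. Sdhc and Sdhd anchor the enzyme in the membrane and Sdhb carries its iron-sulfur clusters. Sdha, the flavin-bearing catalytic subunit, had levels of 3.19, 3.86 and 3.79 in WT and 3.82, 3.94 and 3.98 in KO. WT replicate 1 alone was low, and the groups overlapped (0.30, SE 0.18, limma adjusted p = 0.490). Without WT replicate 1 the difference was 0.09, and the 3 other tested Sdha probes had differences from -0.06 to 0.09.

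Complex III, the cytochrome bc1 complex, had 8 subunits with differences from -0.06 to 0.19 and a median of 0.02. The core proteins Uqcrc1 (-0.04) and Uqcrc2 (0.01) and the Rieske iron-sulfur protein Uqcrfs1 (0.02) lay near 0, with standard errors of 0.11, 0.07 and 0.10. Uqcrq, a small subunit, had the lowest value (-0.06, SE 0.09). Uqcrb, a subunit that binds ubiquinone, had levels of 4.65, 4.73 and 4.63 in WT and 4.91, 4.83 and 4.86 in KO. All 3 KO values were higher than every WT value. The difference of 0.19 (SE 0.07) had an unadjusted limma p of 0.0326 and did not pass over all genes (limma adjusted p = 0.276), and a second Uqcrb probe, which overlaps the first, had 0.13 with its groups also apart.

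Complex V, the ATP synthase, had 15 subunits with differences from -0.08 to 0.09 and a median of 0.01. At their brightest probes 0 had an unadjusted limma p under 0.05 or groups that did not overlap, against 15.0% and 22.4% of all genes. The 5 genes of the catalytic F1 head ranged from -0.04 (Atp5d) to 0.09 (Atp5e). Atp5a1 and Atp5b, its alpha and beta subunits, had -0.01 (SE 0.07) and 0.00 (SE 0.10). The 3 genes for the identical subunit of the proton-driven c ring were -0.08 for Atp5g1, 0.02 for Atp5g2 and 0.00 for Atp5g3. The signs of all 3 turned in some settings given at the end, and another Atp5g1 probe read 0.32 (limma adjusted p = 0.256). The 7 other membrane and stalk subunits ranged from -0.01 (Atp5j) to 0.09 (Atp5k, a subunit of the dimer interface). Atp5k had levels of 5.11, 4.97 and 4.98 in WT and 5.17, 5.05 and 5.12 in KO. Its groups overlapped (limma adjusted p = 0.630).

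**Figure D2:**
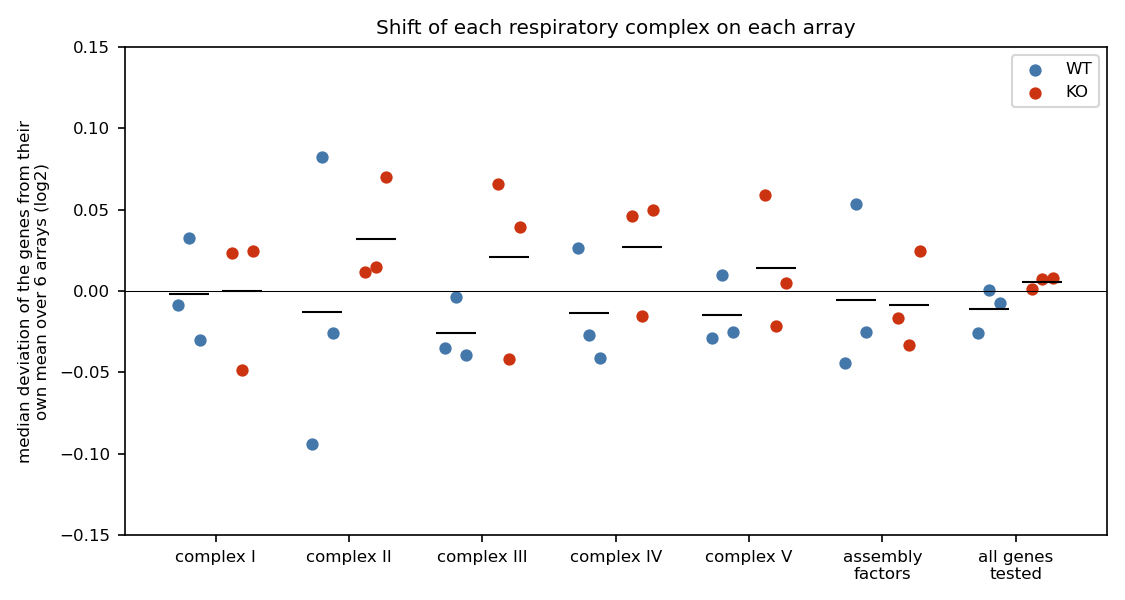
For each array, the median over the genes of a complex of their deviation from their own mean over the 6 arrays, in log2 units; blue points are the 3 WT arrays, red points the 3 KO arrays and black lines group means. WT and KO points overlap in each of the complexes and in the assembly factors, and all points lie within 0.1 of 0. In the last column, all genes tested, they do not overlap, with WT from -0.0259 to 0.0005 and KO from 0.0014 to 0.008.

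Complex IV, the cytochrome c oxidase, held the largest positive and the largest negative difference of all members. Its 10 common nuclear subunits, here counted with Ndufa4, ranged from -0.03 (Cox7c) to 0.18 (Ndufa4), with a median of 0.05 and 0 at an unadjusted limma p under 0.05. Cox4i1, which carries a site of regulation by adenine nucleotides, had 0.045 (SE 0.08), Cox5a 0.12 (SE 0.08) and Cox6c 0.09 (SE 0.08). Ndufa4, first assigned to complex I and now counted to complex IV, had levels of 3.93, 4.11 and 4.06 in WT and 4.27, 4.09 and 4.30 in KO. KO replicate 2 fell inside the WT range (0.18, SE 0.09, limma adjusted p = 0.416). Of the 7 tissue forms, 5 were tested, and 3 of these had an unadjusted limma p under 0.05, namely Cox6a2, Cox4i2 and Cox7b2; the share over all genes is 15.0%.

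Cox6a2, the heart and skeletal muscle form of subunit 6A, had levels of 0.40, 0.62 and 0.51 in WT and -0.32, -0.66 and -0.52 in KO (its only probe, on chromosome 7, 135349160 to 135349219, mm9). Every KO value was lower than every WT value by more than the spread within either group (SD 0.11 in WT and 0.17 in KO). The signal was 2.01-fold lower in KO (log2 difference -1.01, SE 0.11, 95% interval -1.28 to -0.74). By limma's adjusted p of 0.0534 it did not pass, ranking 21 of 15371 genes. It passed with normexp background correction, with median centring, with quantile normalization, with the average over a gene's probes and with a variance that depends on level (adjusted p from 0.0243 to 0.0489). In the 12 other alternatives Cox6a2 did not pass. Its limma adjusted p was 0.0607 to 0.175 when 1 array was left out and 0.140 without the arrays with Xist signal. Its common partner Cox6a1 had levels of 7.66, 7.73 and 7.70 in WT and 7.77, 7.69 and 7.80 in KO. Cox6a1 overlapped between the groups (0.06, SE 0.07, limma adjusted p = 0.774).

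Of 17 markers of skeletal muscle and brown fat, other tissues in which Cox6a2 is found, 5 were tested. The summed level of the list ranged from 2.67 to 2.88 in WT and from 2.78 to 2.95 in KO. Myog and Myod1, transcription factors of muscle cells, Ckm, muscle creatine kinase, and Ucp1, the uncoupling protein of brown fat, were well above background on 0 arrays. Of the other markers that were not tested, Myh2, a fast myosin, was well above background on 2 WT arrays and 0 KO arrays, with levels of -6.66, -4.54 and -0.68 in WT and -6.41, -6.27 and -5.89 in KO. Des, the muscle filament protein desmin, was well above background on 2 arrays of each group, and Myh4, another fast myosin, on 1 WT and 2 KO arrays. Actn2, a muscle actinin, was well above background on 0 WT arrays and 1 KO array. Acta1, skeletal muscle actin, had 0.07 (SE 0.08), Tnni2, a fast-muscle troponin, 0.08 (SE 0.13) and Mylpf, a fast-muscle myosin light chain, -0.01 (SE 0.12). Tnnt3, another fast-muscle troponin, had -0.27 (SE 0.10, limma adjusted p = 0.285), and Dio2, a deiodinase of brown fat and other tissues, 0.67 (SE 0.24, limma adjusted p = 0.265). The part of such cells in the Cox6a2 difference was not tested.

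Cox7b2, the testis form of subunit 7B, had levels of -4.18, -4.19 and -3.93 in WT and -3.19, -2.89 and -2.80 in KO (probe on chromosome 5, 71834167 to 71834226, mm9). All 3 KO values were higher than every WT value. The signal was 2.20-fold higher in KO (log2 difference 1.14, SE 0.13, 95% interval 0.83 to 1.45), and by limma's adjusted p of 0.0565 it did not pass. The probe was dim. Its mean signal was between 109 and 116 in WT and between 158 and 230 in KO, over local backgrounds from 39 to 50, and the lowest signal called well above background lay between -4.62 and -4.41 on WT arrays and between -4.15 and -3.60 on KO arrays. Dim probes as a whole read higher in KO. The 22288 probes well above background on no array had a median difference of 0.56, and the 1749 probes well above background on all arrays within 0.5 of the Cox7b2 level had one of 0.10. With normexp correction, which treats low signals differently, the Cox7b2 difference was 0.74, and 0.66 with quantile normalization added; the part of background signal in the difference was not tested. The common partner Cox7b had levels of 4.63, 4.61 and 4.58 in WT and 4.70, 4.67 and 4.78 in KO. Cox7b also lay above WT on all KO arrays, by a difference of 0.11 that did not pass (SE 0.07, limma adjusted p = 0.528).

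**Figure D3:**
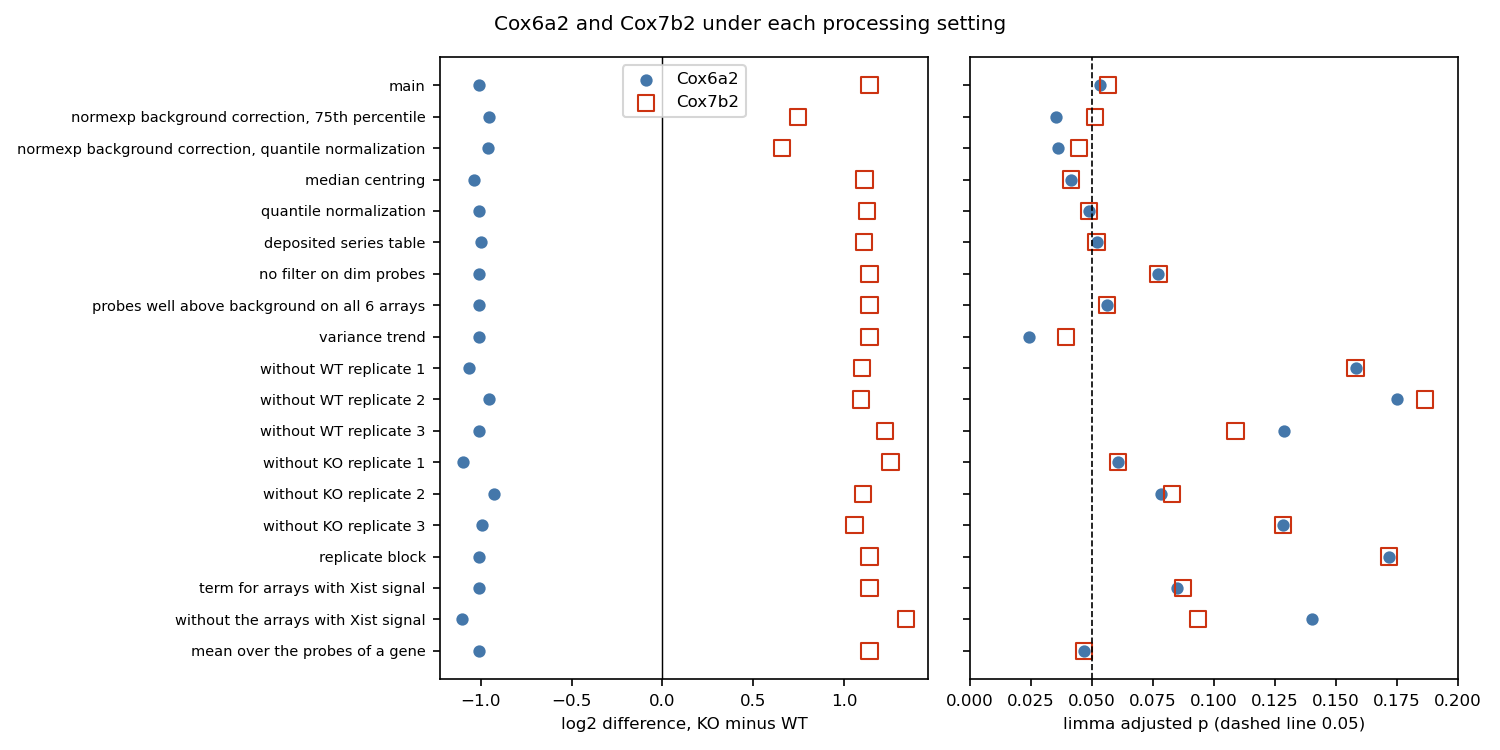
Log2 KO minus WT difference (left) and limma adjusted p (right, dashed line at 0.05) of Cox6a2 (filled circles) and Cox7b2 (open squares) under the setting used throughout, named main, and 18 alternatives. Differences of Cox6a2 stay between -1.10 and -0.93 and those of Cox7b2 between 0.66 and 1.34, while the adjusted p lies on both sides of the line.

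Of 13 testis genes (testis forms of energy genes, Cox7b2 among them, and sperm chromatin proteins), 6 were tested, with 3 positive and 3 negative differences. The summed level of the 13 ranged from -0.14 to 0.65 in WT and from -0.27 to 0.01 in KO. Cox6b2, the testis form of subunit 6B, had -0.08 (SE 0.12), Ldhal6b, a lactate dehydrogenase form, 0.10 (SE 0.12), and Prm2, a protamine, 0.35 (SE 0.28). Prm1, the other protamine, had -2.94 (limma adjusted p = 0.114) and was well above background on 3 WT arrays and 1 KO array. Tnp1, another sperm chromatin protein, had -0.10 (SE 0.17) and was well above background on 3 WT arrays and 0 KO arrays. Both entered the test through the WT arrays alone. Cyct and Gapdhs, which were not tested, were each well above background on 1 WT array and 0 KO arrays. Pgk2, Ldhc, Pdha2 and Slc25a31, testis forms of glycolytic, pyruvate and nucleotide carrier genes, were well above background on 0 arrays, as was Cox8c, the testis form of subunit 8.

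Cox4i2, the lung form of subunit 4 that is raised by low oxygen, had levels of -0.26, -0.32 and -0.29 in WT and -0.49, -0.44 and -0.43 in KO. The 3 KO values lay below the 3 WT values with little spread in either group. The difference of -0.16 (SE 0.07) had an unadjusted limma p of 0.0486 and did not pass over all genes (limma adjusted p = 0.319). Cox7a1, the heart and muscle form of subunit 7A, had levels of 0.36, 0.10 and -0.05 in WT and 0.32, 0.32 and 0.46 in KO. Its groups overlapped (0.23, SE 0.12, limma adjusted p = 0.420), as did those of its partner Cox7a2 (0.02, SE 0.07). The Cox7a1 difference was 0.14 without WT replicate 3 and 0.34 without WT replicate 1.

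Ndufa4l2, a paralog of Ndufa4 that low oxygen induces and that is known to restrain respiration, is grouped with the other genes. Its levels were -0.23, -0.49 and -1.28 in WT and -2.01, -1.26 and -1.09 in KO. WT replicate 3 was as low as 2 of the KO arrays, and the difference did not pass (-0.79, SE 0.34, limma adjusted p = 0.329). It ranged from -1.10 to -0.51 when 1 array was left out, with -0.51 without KO replicate 1.

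Within an array, the change of a tissue form was also set against that of its partner, a value that does not depend on the scaling reference. A factor by which all signals of an array are multiplied had already been removed with the 75th percentile. An offset in background, to which the dim Cox7b2 probe is open, is not removed. The difference of the 2 changes was -1.06 for Cox6a2 against Cox6a1, 1.03 for Cox7b2 against Cox7b, -0.97 for Ndufa4l2 against Ndufa4 and -0.21 for Cox4i2 against Cox4i1. In these 4 pairs the WT and KO arrays did not overlap. For Ndufa4l2 against Ndufa4 they were barely apart, with WT replicate 3 just above KO replicate 2 (SD 0.59 in WT and 0.53 in KO). For each of the 4 pairs an exact two-sided permutation test gave p = 0.10, the smallest that 3 against 3 arrays allow. After Benjamini-Hochberg adjustment over 6 pairs it was 0.15. The permutation test could therefore not pass the threshold used for the other tests, and its p only restates that the arrays did not overlap. These differences rest mostly on the values of the first-named gene of each pair, given above. No share for other gene pairs is given beside them. For Cox6b2 against Cox6b1 (-0.11) and Cox7a1 against Cox7a2 (0.21) the arrays overlapped (exact permutation p = 0.30 each).

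**Figure D4:**
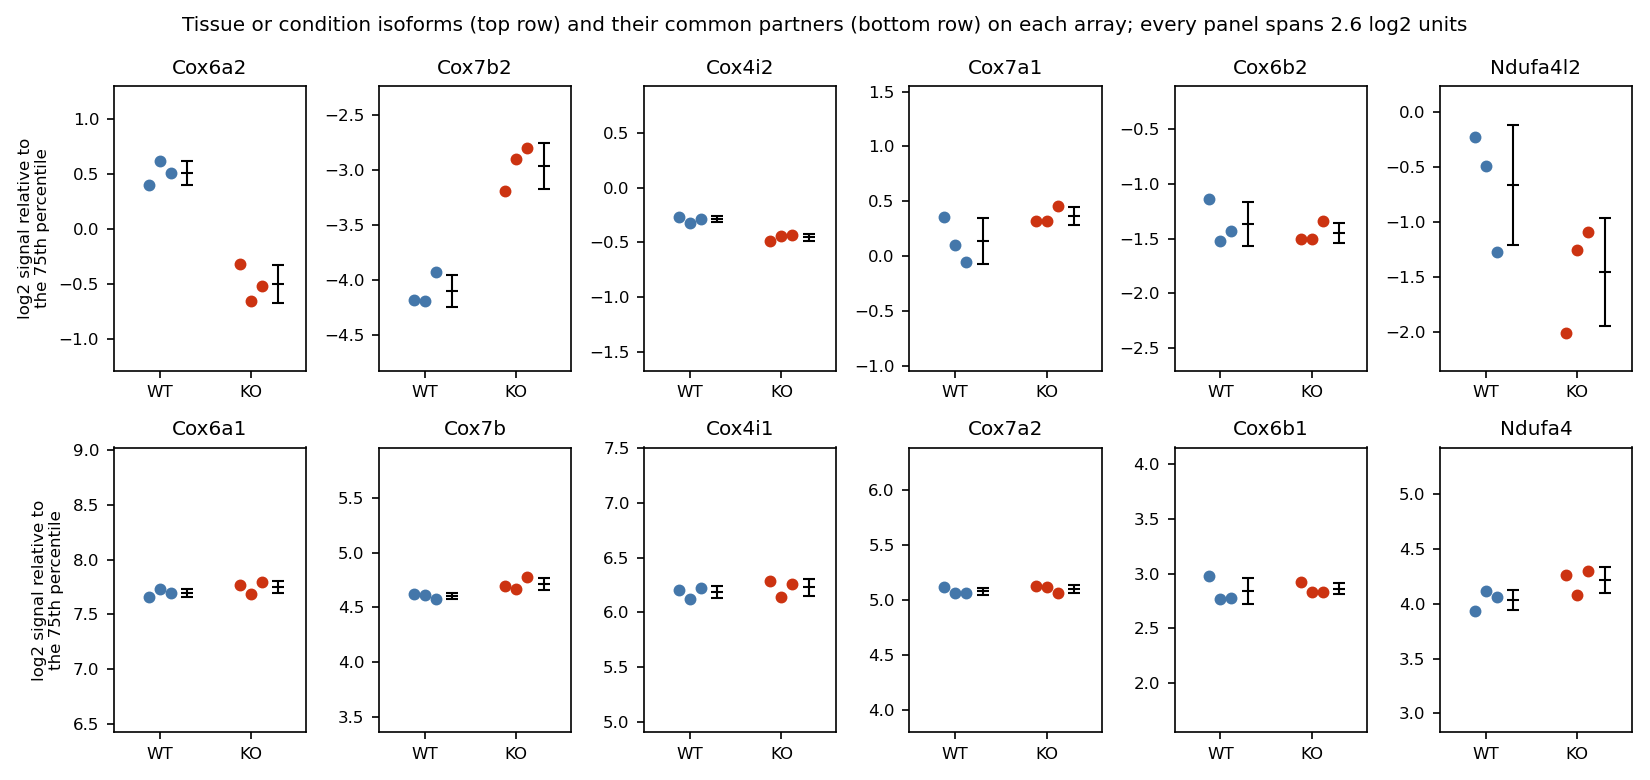
Log2 signal relative to the array's 75th percentile for 6 tissue or condition forms (top) and the common partner of each (bottom); points are single arrays (blue WT, red KO) and black bars group mean and SD, and all panels span the same range of log2 units. Cox6a2 is lower and Cox7b2 higher on every KO array, while the partners in the bottom row move little.

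The 16 assembly factors, which build the complexes but are not part of them, had differences from -0.22 to 0.23. Of these, 8 were positive, 8 negative and 0 had an unadjusted limma p under 0.05, against 15.0% of all genes. The 7 Ndufaf genes, which assemble complex I, ranged from -0.08 to 0.23. Ndufaf6 had the highest value, with levels of -0.32, -0.19 and -0.36 in WT and 0.34, -0.25 and -0.27 in KO. KO replicate 1 alone was high (0.23, SE 0.17, limma adjusted p = 0.580), and the difference was 0.03 without it. The 9 Cox assembly genes, which serve the assembly of complex IV, ranged from -0.22 to 0.11. Cox11, which serves copper delivery, had levels of 0.78, 1.17 and 0.83 in WT and 0.62, 0.71 and 0.78 in KO. The KO values lay just below the WT values (-0.22, SE 0.12, limma adjusted p = 0.435), and without WT replicate 2 the difference was -0.10. Among the other genes, Atp5s, a coupling factor homolog, had -0.62 (SE 0.49), with WT replicate 1 at -1.21 and the remaining 5 arrays between -3.15 and -2.97. Cox7a2l, which joins complexes III and IV into supercomplexes, had 0.04 (SE 0.08).

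Standard errors of the members ranged from 0.07 (Cox4i2) to 0.49 (Atp5s). Of the 99 members, 91 had a 95% interval that lay within 0.5 on either side of 0, a bound chosen after the values were seen. The 8 that reached beyond it were Atp5s, Cox11, Cox6a2, Cox7a1, Cox7b2, Ndufa4l2, Ndufaf6 and Sdha. Of the 73 subunits other than complex IV tissue forms, 72 had an interval within that bound. A second or further probe was tested for 38 members, and the 48 such probes had differences from -0.29 to 0.57, with 42 within 0.25 of 0. Of the 48, 4 had an unadjusted limma p under 0.05 (of Ndufa10, Ndufaf5, Atp5g1 and Cox16), against 15.0% of all genes. In 19 of the 38 genes at least 1 of these probes had the opposite sign. The probe at 0.57, of Atp5j2, rested mostly on KO replicate 2 (-1.43); the other KO arrays (-2.59 and -2.56) lay just above the WT arrays (-2.81 to -2.74).

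Other genes of the pathway were described by lists. Assembly factors outside the naming rule (32 of 33 tested) had 16 positive and 16 negative differences with a median of 0.00. Electron carriers and nucleotide exchange genes (22 of 25 tested) had a median of 0.00. Cytochrome c, Cycs, was at -0.05 (SE 0.08) and the ADP/ATP carrier Slc25a4 at -0.15 (SE 0.09). The 19 genes of the tricarboxylic acid cycle had a median of 0.03, with 0.05 (SE 0.08) for citrate synthase, Cs. Regulators of mitochondrial biogenesis (13 of 16 tested) had a median of 0.02, with 0.02 (SE 0.09) for Tfam, the packaging factor of mitochondrial DNA, while the coactivator gene Ppargc1a was well above background on 0 arrays. In each of these 4 lists 0 genes had an unadjusted limma p under 0.05, against 15.0% of all genes. The glycolysis and hypoxia list (23 tested) had 18 positive differences (78.3%, against 55.8% of all genes; 15 with median centring) and a median of 0.09. In it 2 genes (8.70%, against 15.0% of all genes) had an unadjusted limma p under 0.05 and 0 passed the adjusted threshold. These were Pdk1, the kinase that shuts off pyruvate dehydrogenase (0.33, SE 0.11, limma adjusted p = 0.240), and Ankrd37, a target of hypoxia-inducible factor (0.33, SE 0.14, limma adjusted p = 0.314).

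Subunits encoded by mitochondrial DNA were matched for 11 of 13 genes, with 5 positive and 6 negative differences and a median of -0.04. COX1 and COX2, the catalytic core of complex IV, had 0.03 and 0.04 (SE 0.10 each) and CYTB, the core of complex III, 0.08 (SE 0.10). The probe named ND3, for a complex I subunit, had levels of 5.71, 5.61 and 5.81 in WT and 5.21, 5.23 and 5.16 in KO. Every KO value was lower, and the difference of -0.51 (SE 0.08) had an unadjusted limma p of 0.000524 without passing over all genes (limma adjusted p = 0.0754). The files place this probe on chromosome 1 (24619613 to 24619672, mm9) and not on the mitochondrial genome, so which copy it read is uncertain. The positions of the other probes of this list are not given here, so the same may hold for them. The probe named ND6 had 0.52 (SE 0.25, limma adjusted p = 0.375) with overlapping groups.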

How the data were processed

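Intensity values in the deposited scanner files (background-corrected processed signal, mean signal, median background) came from Agilent Feature Extraction 10.7.1.1 with probe positions on mm9, per the file headers; version 9.1 of that software is named in the submitters' processing notes. The deposited series table holds log2 values whose columns share the same sorted values up to rounding, as after quantile normalization, and served as an alternative. The description field and extraction protocol speak of human blood; the titles, source names and organism field were followed.

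Outlier spots (49 to 131 per array) were left out, each array's 75th percentile was subtracted from its log2 processed signals, and spots of a probe were averaged. Probes above background on all arrays of either group were tested (28606 probes, 15371 genes), and a gene was represented by its brightest tested probe, averaged over the 6 arrays. Differences were tested with R 4.3.3 and limma 3.58.1 (lmFit, eBayes, two-sided, 4 residual and 2.65 prior degrees of freedom), with Benjamini-Hochberg adjustment over all tested probes and 0.05 as threshold. The fit was tested on simulated data. Members, lists and tests were chosen with earlier results of these data known. Named are Cox7b2, members whose groups do not overlap at an unadjusted p under 0.05, the highest and lowest difference of each complex and of the assembly factors, and the paired subunit forms; other named members were chosen after their values were seen. The values of 1 member are not reported here. Names follow the array files, which RefSeq has since changed for 3 members. Alternatives varied background correction, scaling, dim-probe filter, probe summary, variance model, left-out replicates, replicate block and arrays with Xist signal. Slide and scan could not serve as a block, since all arrays share 1 of each. Arrays with the same replicate number share a slide column (1, 3 or 4), so the replicate block is also a block for slide column. The numbers in the labels were checked for pairing (same-number correlations of deviations 0.06, 0.15 and -0.03) and were taken not to pair samples.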

Additional observations from a re-analysis of the deposited data

How the results depend on the processing

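No setting turned the direction of Cox6a2 (-1.10 to -0.93) or Cox7b2 (0.66 to 1.34). Members past limma's adjusted threshold numbered 2 (Cox6a2 and Cox7b2) with normexp and quantile normalization, median centring, quantile normalization alone, a variance trend or the mean of a gene's probes, 1 (Cox6a2) with normexp and the 75th percentile, and 0 elsewhere. In those 5 settings Cox7b2 had differences of 0.66, 1.11, 1.12, 1.14 and 1.14 in turn. All genes past the threshold numbered 12, but 146, 62, 21, 153 and 28 in the same 5 settings, 23 with normexp and the 75th percentile, 0 without the filter on dim probes, 6 with probes above background on all arrays, 0 with a term for Xist signal, 3 without the arrays with Xist signal, and 0 to 8 when 1 array was left out (0 when it was WT replicate 1 or 2, 5 for WT replicate 3, 8 for KO replicate 1, 1 for KO replicate 2 and 2 for KO replicate 3). With the replicate number as a block it was 0, with 1 member higher and 1 lower at an unadjusted p under 0.05. Cox6a2 and Cox7b2 each had a limma adjusted p of 0.172 with this block, which is also one for slide column. That numbers pair the samples is not shown, since the correlations of same-number deviations were 0.06, 0.15 and -0.03. Members higher at that p (2) numbered 1 with median centring or without the arrays with Xist signal and 1 to 3 when 1 array was left out; members lower (2) numbered 3 with median centring or with probes above background on all arrays, 1 with the series table, without the dim-probe filter or with quantile normalization and 1 to 2 when 1 array was left out. The causes were not tested. With median centring, the split of all genes at that p was 699 higher and 1383 lower, against 1066 and 1234. The median of the members was -0.0114 without the arrays with Xist signal and 0.0042 to 0.032 when 1 array was left out.

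Signs turned for genes close to 0 and for Ndufaf6 (0.23). Median centring gave -0.0055 for Atp5g2, -0.0047 for Cox6b1, -0.0003 for Cox8a, -0.0066 for Cox7a2 and -0.0179 for Sdhc. Without the arrays with Xist signal the values were -0.0127 for Atp5g2, 0.018 for Atp5g3, -0.0391 for Cox6b1, -0.0027 for Cox7a2, -0.0637 for Cox8a and -0.0017 for Ndufaf6. The mean of probes gave 0.0478 for Atp5g1 and 0.0273 for Atp5g3. The series table gave -0.0009 for Cox7a2, -0.0011 for Cox8a and -0.0016 for Sdhc, quantile normalization -0.0032, -0.0034 and -0.0027 for the same genes, and normexp -0.0156 (75th percentile) and -0.0301 (quantile) for Cox7a2. Leaving out 1 array gave -0.0061 to 0.0409 for Atp5g2, -0.0424 to 0.0213 for Atp5g3, -0.0145 to 0.0923 for Cox6b1, -0.161 to 0.03 for Cox6b2, -0.0425 to 0.0826 for Cox8a, -0.0189 to 0.0411 for Sdhc and -0.0998 to 0.006 for Uqcrq. With 3 arrays a group, the limit is the number of arrays, and for Cox7b2 the low signal over background.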
